A study of Mus musculus with 4 samples.

Results

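The genes described here are the Kif genes of the mouse, which encode the kinesin motor proteins, in Th17 cells given a guide against Adarb1. Members were the rows of the authors' deposited table whose GENCODE M21 symbol starts with Kif and then a digit or the letter c and whose gene type is protein-coding. This gave 43 of 55450 genes. Textbook roles put 14 of them with the mitotic kinesins, 15 with the transport kinesins and 13 with other kinesins. The last member, Kif1bp, encodes a protein that binds kinesins and is no motor itself.

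RNA was sequenced from 4 cultures of Th17 cells, the CD4 T helper class that makes IL-17. In 2 cultures the cells had received a PSIN retrovirus with a guide against Adarb1 (sgAdarb1), the gene of the RNA-editing enzyme ADAR2, and in 2 they had received the PSIN vector with no guide (empty vector). All 4 carried a Cas9 transgene, so control cells held the nuclease without a guide, and the mice, 8 to 12 weeks old, are called wildtype in the design text. Per the labels, activation of naive CD4 T cells with anti-CD3 (0.25 µg/mL) and anti-CD28 (1 µg/mL) took 24 h before the retrovirus was added, and TGF-β (0.3 ng/mL) and IL-6 (20 ng/mL) then drove Th17 polarization over 72 h. Each of the 2 donor mice gave 1 culture of either kind.

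Groups follow the sample titles and the design text. The treatment tag goes against the title in 2 of the 4 samples: by the tag, both replicate 1 cultures are controls and both replicate 2 cultures are knockdowns. Which of the labels the authors' comparison followed could not be checked, and under the tag it would compare replicates, not guide and vector. Of the deposited values, those per library stand under names that match no label, so they were not used, and no value per culture or spread between cultures can be given. Each gene is therefore described by its mean normalized count over all 4 libraries, its log2 fold change and the standard error (SE) of that change, all from the authors' deposited table. Since no column names the order of the groups, a positive fold change is read as higher in sgAdarb1, after the design text. With the opposite order all signs given here would turn. Adarb1 mRNA itself stood at a log2 fold change of 0.11 ± 0.12 (SE, the authors' deposited table), so its level does not check the labels.

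Kinesins are ATP-driven motors that move along microtubules or change their ends. Mitotic kinesins build the spindle, move chromosomes and complete cytokinesis, and their mRNAs are made mainly by cycling cells around G2 and M phase. Transport kinesins carry vesicles, organelles and RNA along microtubules and are used by resting and dividing cells alike. In T cells, microtubule motors also take part in moving the centrosome and vesicles toward the immune synapse.

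Most mitotic members with a promoter window share a feature of their promoters. The class was set by textbook role, and the feature is known from genes of that kind. The CHR, the cell cycle genes homology region, is a short element known from genes with peak expression in G2 and M phase, often beside CCAAT boxes. Promoter windows, from 250 bases before to 50 after an annotated start, were taken from RefSeq on GRCm38.p6, the assembly also called mm10. Windows were found for 33 of the 43 members. RefSeq starts can differ from those of GENCODE M21. The whole windows of the mitotic Kif14, Kif2c and Kif4 and of the transport Kif17 lay inside the GENCODE gene. So did that of Kif27, among the other kinesins, and 1 window of Kif1a. The letters TTTGAA and TTCGAA were searched as the CHR and CCAAT as the box, both on either strand, and no CHR match overlapped a CCAAT match among the members. A CHR match lay in the windows of 11 of 13 mitotic kinesins with a window and of 1 of 10 transport kinesins. Over all promoters one was found in 5854 of 27025 genes, and in 19.2% of the 32851 windows. The transport match was in 1 of the 2 windows of Kif1a. Among other kinesins Kif24, Kif26b and Kif27 held one, 3 of 10. A CCAAT match lay in the windows of 9 of 13 mitotic and 3 of 10 transport kinesins. Over all promoters one was found in 11096 of 27025 genes, and in 37.4% of the windows.

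The stretches below run from base -90 to base 29, where the annotated first base counts as 0. They are chosen examples and do not represent either class. Not shown are the Kif1a window with a CHR and the windows of the mitotic genes Kif14 and Kif2c, whose CHR lies before base -90. The windows of the mitotic genes Kif18b, Kifc1 and Kifc5b, which also hold a CHR, are not shown either. Capitals mark CHR and CCAAT matches on either strand. Kif11, Kif15, Kif22, Kif20b, Kif23 and Kif4 are mitotic genes with a CHR close to the start, and Kif18a is a mitotic gene without one. Kif1c and Kif3b are transport genes.
Kif11, chr19:37376292-37376411, plus strand: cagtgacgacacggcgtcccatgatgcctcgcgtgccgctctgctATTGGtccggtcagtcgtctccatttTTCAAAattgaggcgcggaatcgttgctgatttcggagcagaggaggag
Kif15, chr9:122950991-122951110, plus strand: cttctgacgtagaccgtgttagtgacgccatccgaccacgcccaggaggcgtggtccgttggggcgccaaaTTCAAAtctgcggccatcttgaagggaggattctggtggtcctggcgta
Kif22, chr7:127042391-127042510, minus strand: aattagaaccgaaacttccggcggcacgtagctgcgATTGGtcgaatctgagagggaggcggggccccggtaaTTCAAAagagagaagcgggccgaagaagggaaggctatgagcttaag
Kif20b, chr19:34922268-34922387, plus strand: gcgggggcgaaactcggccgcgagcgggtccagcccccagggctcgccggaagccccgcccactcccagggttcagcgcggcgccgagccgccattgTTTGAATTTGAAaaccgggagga
Kif23, chr9:61946770-61946889, minus strand: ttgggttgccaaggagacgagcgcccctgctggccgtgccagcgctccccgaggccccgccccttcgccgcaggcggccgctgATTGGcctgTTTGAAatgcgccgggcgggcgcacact
Kif4, chrX:100625975-100626094, plus strand: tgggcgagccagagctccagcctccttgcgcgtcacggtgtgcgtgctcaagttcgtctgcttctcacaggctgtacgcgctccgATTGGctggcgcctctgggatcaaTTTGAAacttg
Kif18a, chr2:109280648-109280767, plus strand: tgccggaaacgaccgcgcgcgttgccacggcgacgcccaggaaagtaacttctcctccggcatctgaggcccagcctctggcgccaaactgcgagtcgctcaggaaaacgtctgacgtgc
Kif1c, chr11:70700458-70700577, plus strand: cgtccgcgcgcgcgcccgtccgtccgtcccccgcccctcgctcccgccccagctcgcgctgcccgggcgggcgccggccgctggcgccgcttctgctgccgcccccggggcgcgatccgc
Kif3b, chr2:153291326-153291445, plus strand: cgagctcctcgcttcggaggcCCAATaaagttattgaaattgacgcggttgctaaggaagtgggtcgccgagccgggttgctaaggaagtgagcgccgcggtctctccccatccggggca

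In Kif11, Kif15 and Kif22 a CHR began 19, 19 and 17 bases before the start. Kif20b held 2 directly adjoining copies beginning 7 and 13 bases after it. Counted between 60 bases before and 30 after the start, limits chosen after the positions were seen, a CHR lay in 8 of the 13 mitotic windows, in 1 of the 12 transport windows (Kif1a) and in 4.98% of all windows. The mitotic windows without any CHR were those of Kif18a and Kif2b. The median GC content was 60.7% in mitotic and 68.2% in transport windows and 52.7% in all windows, and its part in the motif counts was not tested. A match says that these letters are present in the window. Whether a factor binds there was not measured.

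**Figure D1:**
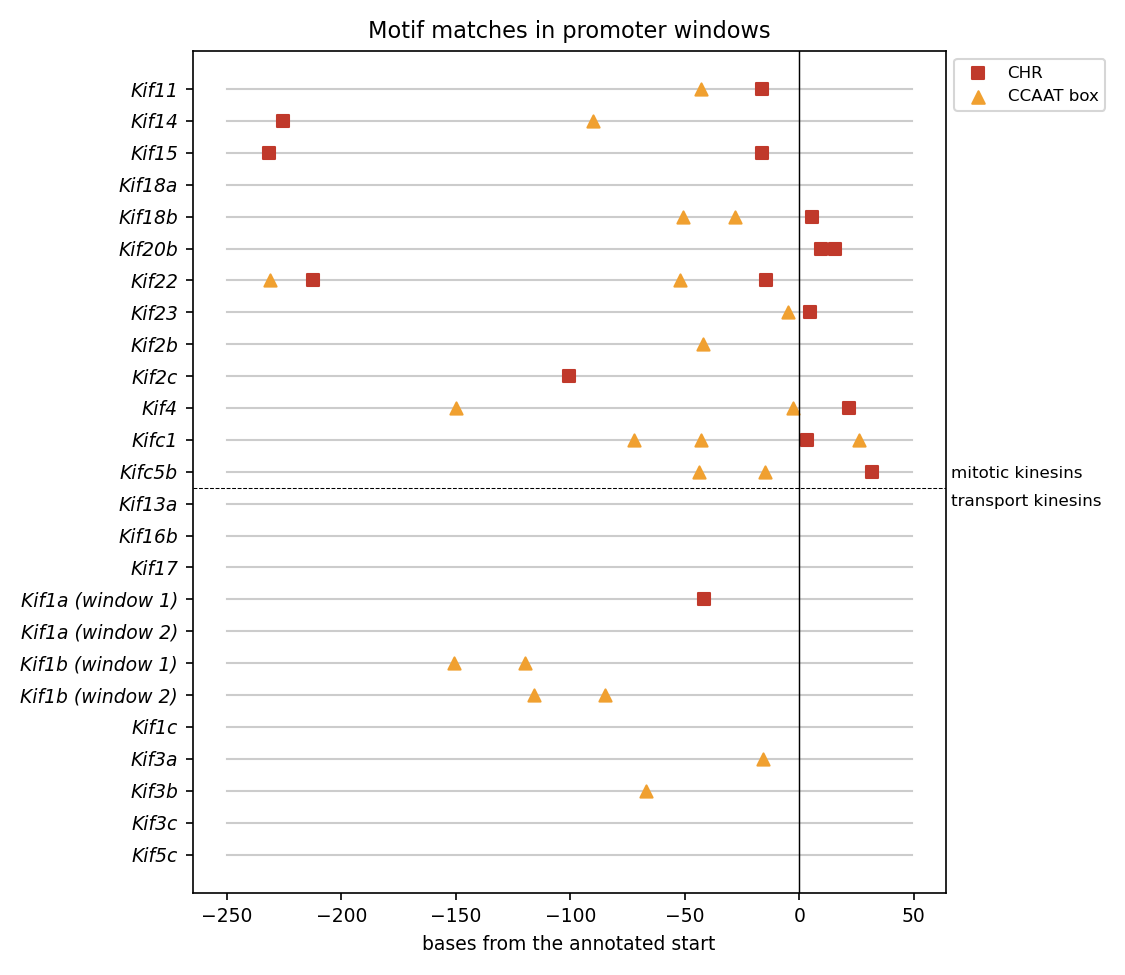
Positions of CHR (red squares) and CCAAT box (orange triangles) matches, on either strand, in RefSeq promoter windows of mitotic kinesins (above the dashed line) and transport kinesins (below it). The x axis gives bases from the annotated start, each grey line is 1 window, and CHR matches lie in 11 of 13 mitotic windows and in 1 transport window.

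Both classes were expressed in these cells. The mitotic kinesins summed to 15519 mean normalized counts and the transport kinesins to 15603, which were 42.2% and 42.4% of the sum over the members in the authors' deposited table. The motors of widest use led the transport class. Kif5b, the ubiquitous heavy chain of conventional kinesin, had the highest level per length of any member, at 711 mean normalized counts per kilobase of exon. Kif11, the motor that pushes spindle poles apart, came next at 397 per kilobase, then Kif1c, a carrier of vesicles, at 362 and Kif3b, which carries cargo as a pair with Kif3a, at 319. Kif3a itself had 157 per kilobase. The mitotic kinesins with a nonzero count ran from 31.5 per kilobase for Kif18a to 397 for Kif11. Kif5c, Kif1a and Kif5a, known chiefly from neurons, were low, at 19.8, 7.51 and 4.76 per kilobase. Kif21b, known in human T cells as a brake on microtubule growth, had 224 per kilobase, while its relative Kif21a had 2.15.

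At the bottom, 2 members were listed at 0. They were Kif2b, a depolymerase of spindle microtubules, and Kif6, a motor of cilia. Another 7 had a mean below 10 normalized counts: Kif17, Kif26a, Kif26b, Kif19a, Kif27, Kif12 and Kif28. That left 34 members with a mean of at least 10 and 29 with a mean of at least 50. The standard errors of members below 50 ran from 0.62 for Kif9 to 4.97 for Kif12 and Kif28 in the authors' deposited table, so their fold changes carry little information. They are given only by range: among the 12 members with a fold change and a mean below 50, values ran from -2.22 for Kif26a to 1.31 for Kif12 and Kif28.

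**Figure D2:**
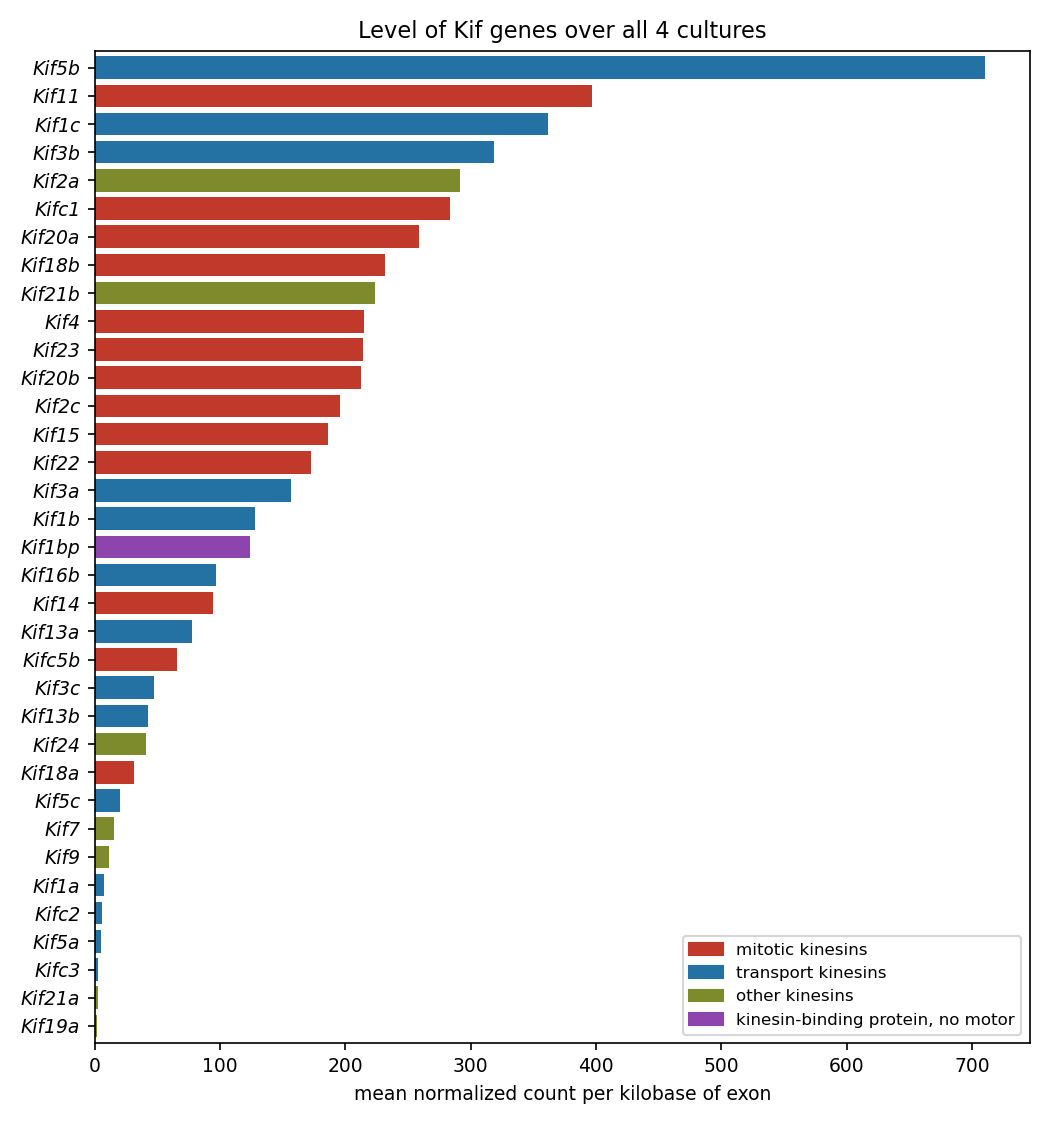
Mean normalized count over all 4 libraries per kilobase of exon, for the members with at least 1 count per kilobase, coloured by class. Kif5b leads at 711, Kif11 follows at 397, and the neuronal transport kinesins Kif1a and Kif5a lie near the bottom.

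The comparison of sgAdarb1 with empty vector cells asked whether kinesin mRNAs differed and whether mitotic and transport kinesins differed alike. No kinesin passed the test. By DESeq2 in the authors' deposited table, with Benjamini-Hochberg adjustment over 29383 genes and 0.05 as the threshold, 0 of the 41 members with a fold change and 0% of all genes were called. At an unadjusted DESeq2 p below 0.05 the count was also 0 of 41, against 0.208% of all genes. With a mean of at least 500 it was 0 of 22 members, against 56 of 5767 genes. Over all genes with a mean of at least 10 the Wald statistics had a spread of 0.54, narrower than the normal curve behind the p-values. The test was thus strict, and neither a lack of calls nor an interval that includes 0 shows that an mRNA was unchanged. The smallest unadjusted p of a member was 0.0547, that of Kif11, and its DESeq2 adjusted p was 1.00 (the authors' deposited table). As classes, the mitotic kinesins lay below 0 in 12 of 13 genes with a median log2 fold change of -0.17, and the transport kinesins in 8 of 14 with a median of -0.02, over members with a mean of at least 10. Of all 14547 genes with that mean 49.5% lay below 0, and their median was 0.0017. With a mean of at least 50, 23 of 29 members of any class lay below 0, beside 48.1% of all 10680 genes with that mean. RNA from whole cultures cannot tell apart fewer cells of a type, such as cells in mitosis, and less RNA per cell.

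The difference between the class medians was -0.15 on the log2 scale. Members of a class are not replicates and are often transcribed together, so no test was made over a class, and the difference is a description of 4 cultures. With a mean of at least 500, where SEs are small, 10 of 11 mitotic and 5 of 8 transport kinesins lay below 0, beside 49.6% of all genes with that mean. In the same set 9 of 11 mitotic kinesins lay at -0.1 or lower and 2 of 8 transport kinesins did, beside 12.7% of the 5767 genes with that mean. This limit of -0.1 was chosen after the values were seen. Fold changes over all genes also varied with GC content and exon length. With that trend removed the mitotic median was -0.16 and the transport median -0.02, with 12 of 13 and 9 of 14 genes below 0, beside 50.7% of all genes. The mitotic Kif15 and Kif23 and the transport Kif5b then no longer reached the limit of -0.1, at -0.0854, -0.0887 and -0.0745.

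**Figure D3:**
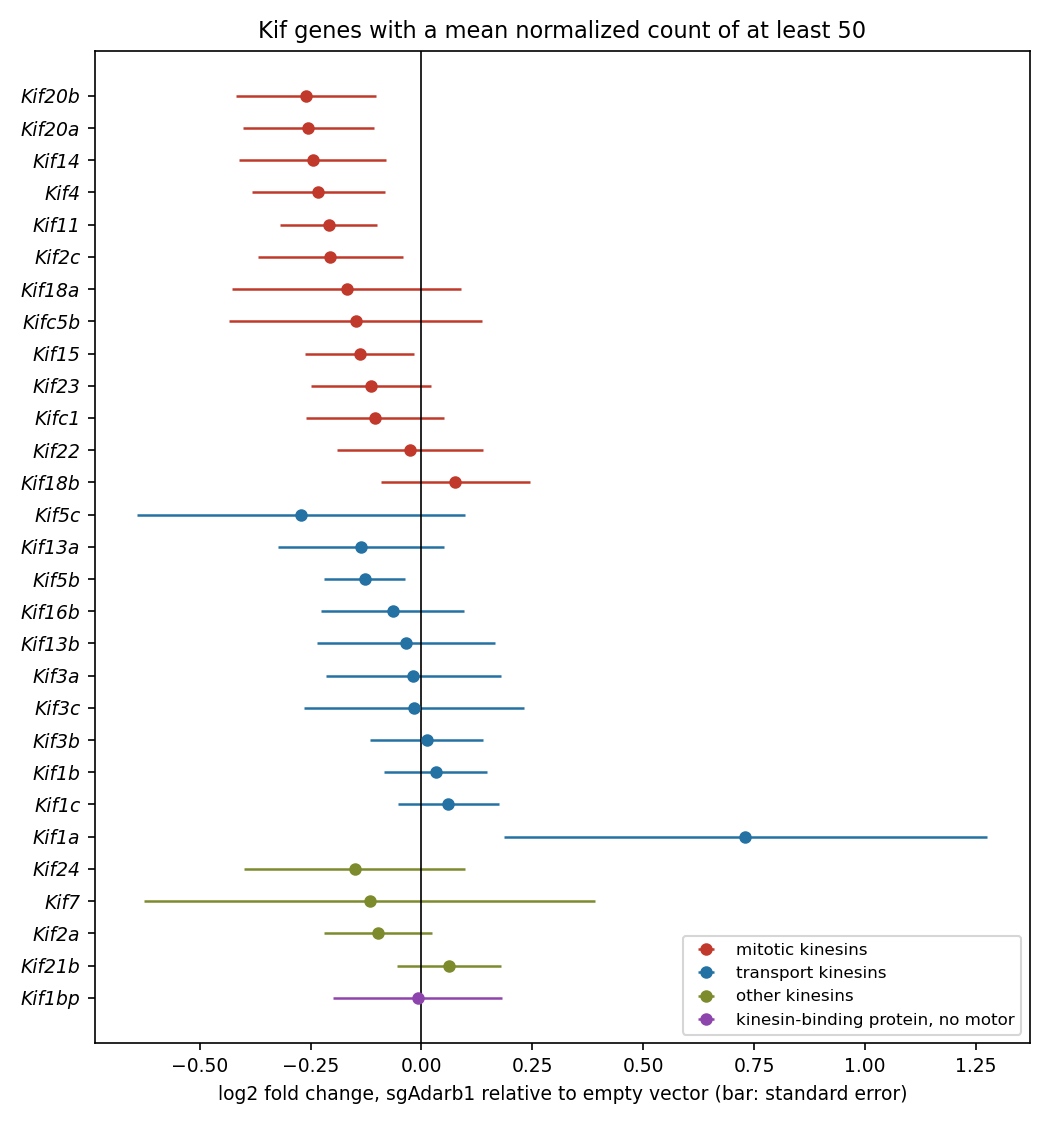
Log2 fold change of sgAdarb1 relative to empty vector (points) with its standard error (bars) for the 29 members with a mean normalized count of at least 50, from the authors' deposited table. Mitotic kinesins (red) lie left of 0 in 12 of 13 cases, whereas transport kinesins (blue) lie on both sides, and none of the genes passed the test.

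Several mitotic kinesins work in cytokinesis. Kif20b, which works at the midzone and in abscission, had a mean normalized count of 1475 and a log2 fold change of -0.26 ± 0.16 (SE) in the authors' deposited table. Its relative Kif20a, the carrier of Aurora B to the midzone, had a mean of 1124 and a change of -0.26 ± 0.15 by the authors' deposited table. Kif14, which recruits citron kinase to the midbody, lay at -0.25 ± 0.17 in the authors' deposited table. Kif23, the motor subunit of the centralspindlin complex, was at -0.11 ± 0.13 (mean 1688, the authors' deposited table). The intervals of these genes included 0, as did those of every mitotic member, so the order of the mitotic values is not resolved by their SEs.

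The chromokinesins bind chromosome arms. Kif4, needed for chromosome shape and midzone length, had a mean of 1184 and stood at -0.23 ± 0.15 in the authors' deposited table. Kif22, which pushes chromosome arms outward, had a mean of 846 and stood at -0.03 ± 0.16 by the authors' deposited table. The difference between these genes was not tested. Of the motors that set spindle bipolarity, Kif11 (ENSMUSG00000012443.4, chr19:37376403-37421859, plus strand) had a mean of 2963 and lay at -0.21 ± 0.11 in the authors' deposited table. Its 95% interval ran from -0.42 to 0.0042 on the log2 scale. Kif15, which can stand in for Kif11, had a mean of 2055 and lay at -0.14 ± 0.12 in the authors' deposited table. Kifc1, the minus-end motor that focuses spindle poles, was at -0.10 ± 0.16, and its close copy Kifc5b at -0.15 ± 0.29, in the authors' deposited table.

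Other mitotic motors act on microtubule ends. Kif2c, a depolymerase that corrects wrong kinetochore attachments, stood at -0.21 ± 0.16 (mean 855, the authors' deposited table). Kif18a, which damps chromosome movement, had the low mean of 309 and lay at -0.17 ± 0.26 in the authors' deposited table. Kif18b, its relative at astral microtubules, was the 1 mitotic member above 0, with a mean of 826 and a change of 0.08 ± 0.17 by the authors' deposited table. Kif18b has a CHR in its promoter window and Kif18a has none. All 13 mitotic intervals lay within log2 changes of -1 and 1, from -0.71 at the lowest to 0.41 at the highest bound.

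Transport kinesins gathered near 0. The low side held Kif5b at -0.13 ± 0.09, the most abundant member with a mean of 5672, and the endosome and vesicle motor Kif13a at -0.14 ± 0.19 in the authors' deposited table. Kif13b, its relative, stood at -0.03 ± 0.20 and Kif16b, a motor of early endosomes, at -0.07 ± 0.16 in the authors' deposited table. The subunits of the heterotrimeric motor lay near 0, with Kif3a at -0.02 ± 0.20, Kif3b at 0.01 ± 0.13 and Kif3c at -0.02 ± 0.25 in the authors' deposited table. Kif1b, a carrier of mitochondria and vesicles, was at 0.03 ± 0.12 and Kif1c at 0.06 ± 0.11 in the authors' deposited table.

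Among transport members with a mean of at least 50, the outermost values belonged to neuronal genes of low mean. Kif1a, a carrier of synaptic vesicle precursors, had a mean of 70.1 and stood at 0.73 ± 0.55 in the authors' deposited table. Kif5c, a heavy chain of conventional kinesin, had a mean of 142 and stood at -0.27 ± 0.37 by the authors' deposited table. Of the 11 transport members with a mean of at least 50, 10 had intervals within log2 changes of -1 and 1, the exception being Kif1a, whose interval reached 1.80. A transport member of that mean would have had to differ by 0.44 (Kif5b) to 2.61 (Kif1a) to pass alone at its SE, and a mitotic member by 0.52 (Kif11) to 1.37 (Kifc5b).

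Other kinesins with a mean of at least 50 were 4 in number. Kif2a, a depolymerase of interphase and spindle microtubules, had a mean of 1865 and lay at -0.10 ± 0.12 in the authors' deposited table. Kif24, which restrains cilium growth at centrioles, had a mean of 328 and lay at -0.15 ± 0.25 by the authors' deposited table. Kif21b had a mean of 2729 and stood above 0, at 0.06 ± 0.12, in the authors' deposited table. Kif7, a regulator of Hedgehog signalling, had the low mean of 71.3 and was at -0.12 ± 0.51 by the authors' deposited table. The binding protein gene Kif1bp was at -0.01 ± 0.19 (mean 607, the authors' deposited table).

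**Figure D4:**
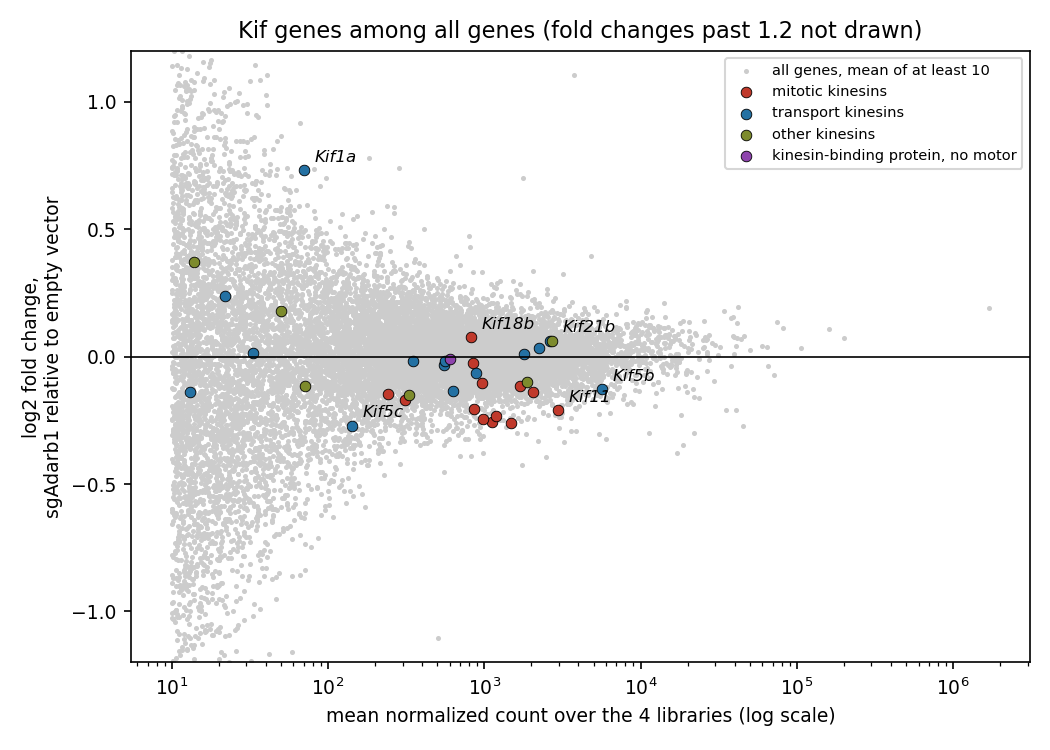
Mean normalized count over the 4 libraries (x axis, log scale) against the log2 fold change of sgAdarb1 relative to empty vector (y axis) for all genes with a mean of at least 10 (grey) and the members (coloured by class), from the authors' deposited table. Genes with a fold change past 1.2 in either direction are not drawn. Mitotic kinesins lie under 0 in 12 of 13 cases, and the lowest of them is at -0.26.

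Some members share sequence with other genes, so their counts are uncertain. For each member the share of 50-base words of its longest transcript that also occur, on either strand, in a transcript of another gene was counted. It was at least 10% in 9 of 43 members. Kifc1 shared 47.6% and Kifc5b 42.1%, mostly with each other, so the values of this pair cannot be told apart with certainty. Kif20a shared 31.2% with Cdc23, whose 3′ end overlaps it on the opposite strand. Kif4 shared 15.9% with Pdzd11 at its 5′ end, Kif2a 22.5% with Dimt1 and Kif3c 38.1% with 1110002L01Rik, all on opposite strands. Kifc3, Kif7 and Kif1bp were the remaining 3 of the 9. Without a stated strand setting, reads of such overlaps cannot be assigned to 1 gene with certainty. Cdc23, a subunit of the anaphase-promoting complex, had a mean of 703 and lay at -0.05 ± 0.18 in the authors' deposited table. Pdzd11 had a mean of 361 and lay at -0.15 ± 0.24 by the authors' deposited table. Without the members at or above 10%, a setting added after the data were seen, the medians were -0.17 over 9 mitotic and -0.0031 over 12 transport kinesins.

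Genes that work with the kinesins were described from lists of their own. Of 22 spindle and cytokinesis partners, 22 lay below 0, beside 49.5% of all genes with a mean of at least 10. Their median was -0.12, and 0 passed the test. An unadjusted DESeq2 p below 0.05 was found in 3 of the 22 and in 60 of all 14547 genes with that mean. Cenpe, the kinetochore motor that is a mitotic kinesin without the Kif symbol, had a mean of 3565 and stood at -0.29 ± 0.12 in the authors' deposited table. Hmmr, a spindle assembly factor, lay at -0.33 ± 0.14, Nusap1, a microtubule bundler, at -0.25 ± 0.13, and Bub1, a checkpoint kinase, at -0.27 ± 0.18 in the authors' deposited table. The spindle kinases Aurka and Aurkb were closer to 0, at -0.04 ± 0.16 and -0.02 ± 0.16 in the authors' deposited table. Earlier results on these data had already placed cell cycle genes below 0, so this list gives no independent support.

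Lists from the transport side and the track itself lay near 0. Cargo adaptors of kinesins were below 0 in 10 of 21 genes, beside 49.5% of all genes with a mean of at least 10. Their median was 0.01, and 0 passed. The list also holds the member Kif1bp. Klc1, a light chain of conventional kinesin, was at 0.08 ± 0.11, and Kifap3, which links cargo to the Kif3 motors, at -0.13 ± 0.21 in the authors' deposited table. Mapk8ip3, a scaffold between motors and vesicles, was at -0.08 ± 0.14 and the light chain Klc4 at 0.14 ± 0.26 in the authors' deposited table. Cytoplasmic dynein and dynactin, the motor of the opposite direction with its cofactor, lay below 0 in 8 of 26 genes, beside the same 49.5%. The median of this list was 0.04, and again 0 passed. The dynein light chain genes Dynll1 and Dynlrb1 stood at 0.13 ± 0.11 and 0.11 ± 0.16 in the authors' deposited table. The adaptors Hook2 and Hook3 stood at 0.14 ± 0.18 and -0.11 ± 0.13 in the authors' deposited table.

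Tubulins, the microtubule subunits, were below 0 in 8 of 17 genes, beside 49.5% of all genes with a mean of at least 10. Their median was 0.02, and 0 passed. Removing the GC and length trend changed the sign of this median, to -0.04, and of the cargo adaptor median, to -0.02. Tubb2b, a beta tubulin known from neurons, had the highest value of the 17, at 0.56 ± 0.29 with an unadjusted p of 0.0498 and an adjusted p of 1.00 (DESeq2, the authors' deposited table). Its relative Tubb2a lay at 0.27 ± 0.23, the beta tubulin gene Tubb6 at 0.10 ± 0.12 and the delta tubulin gene Tubd1 at 0.18 ± 0.39 in the authors' deposited table.

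**Figure D5:**
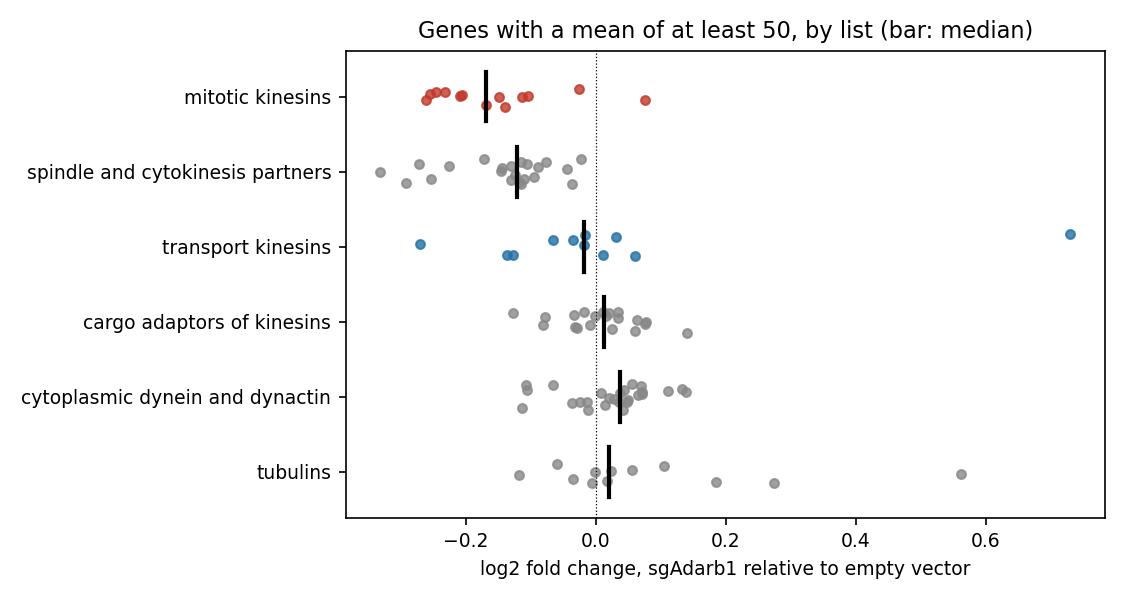
Log2 fold change of sgAdarb1 relative to empty vector for genes with a mean of at least 50 (points) and the median of each list (black bars), from the authors' deposited table. Mitotic kinesins and spindle partners have medians of -0.17 and -0.12, and the transport kinesins, cargo adaptors, dynein and tubulin lists lie within 0.04 of 0. The tubulin and cargo adaptor medians change sign when a trend on GC content and length is removed.

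Defining markers of the labelled cell type were present, 7 of 7 with a mean of at least 10, among them Cd4 (mean 15286), Cd3e (5150) and Il17a (1756) in the authors' deposited table. Of these 7 markers 6 lay above 0, beside 7349 of all 14547 genes with a mean of at least 10. Il17a lay at 0.70 ± 0.15 with an unadjusted p of 2.9e-06 and an adjusted p of 0.0709, and Il17f at 1.11 ± 0.53 with an unadjusted p of 0.0383 (DESeq2, the authors' deposited table). Markers of other cells were present at lower levels: 5 B cell markers summed to 1214 mean normalized counts, 2 CD8 T cell markers to 505, 5 mast cell markers to 105 and 5 myeloid markers to 48.0, and none of them was listed at 0. Log2 fold changes of those with a mean of at least 10 ran from -0.42 to 0.43 in 5 B cell markers, with SEs up to 3.97, from 0.20 to 0.74 in 2 CD8 T cell markers and from 0.94 to 1.69 in 3 myeloid markers (the authors' deposited table). The mast cell protease Cpa3, with a mean of 28.7, lay at -5.66 ± 1.26 in the authors' deposited table. Its unadjusted p was 7.2e-06 and its adjusted p 0.0709 (DESeq2), the same adjusted p as that of Il17a. The mast cell receptor Kit lay at 0.03 ± 0.54 in the authors' deposited table. The mast cell markers Cma1, Fcer1a and Mcpt4, with means below 10, lay below 0 with SEs from 1.98 to 4.93. Sums per group cannot be given without values per culture. The part of these cells and of the Th17 markers in the kinesin values was not tested.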

How the data were processed

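RNA-seq libraries of 4 Th17 cultures were aligned with STAR 2.6.1a, counted with featureCounts and compared with DESeq2 1.18.1 on mm10, per the submitters' processing notes. The annotation, strand setting and model formula were not given in the sources used here. Per the file headers, the authors deposited for each gene a mean signal (the mean of counts divided by size factors), a log2 fold change and its standard error. They also deposited the Wald score, its p-value and an adjusted p, which equalled a Benjamini-Hochberg adjustment over 29383 genes. A further 4 columns, 1 per library, bear names found in no label and were left unused. Depth per library, refits with edgeR or DESeq2 and values per culture were therefore not computed, and p-values measure only the spread the authors modelled.

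All 55450 genes were matched to GENCODE M21 for symbols, positions, exon length and the GC content of the longest transcript. The trend alternative fitted a quadratic surface on GC content and log2 exon length, weighted by the inverse squared standard error, over the 14547 genes whose mean reached 10. It was tested on simulated data. Intervals are 95% normal intervals from the deposited standard error. A gene passing alone needed a Wald statistic of 4.79. Values are given for every member with a mean of at least 50 and for the 4 genes of each other list with the largest Wald statistic in size and that mean, while Aurka, Aurkb, Cdc23, Pdzd11 and the single markers were chosen after their values were seen. The members and lists were chosen with earlier results of these data known. Python 3.11.15, pandas 2.3.3, numpy 2.4.6, scipy 1.17.1 and matplotlib 3.10.9 were used. Protein sequences were not used here, so the planned comparison of member proteins was not made.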

Additional observations from a re-analysis of the deposited data

How the results depend on the processing

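No paired analysis was possible because the 4 library columns have names that fit no sample label. Fits with edgeR or DESeq2 and the omission of a culture were not run either. The count of kinesins past the threshold was 0 at adjusted p limits of 0.1 and 0.01, with only genes whose mean reached 10 or 50 in the adjustment, with the GC and length trend removed, and with Wald statistics divided by their spread of 0.54. In that last setting, which takes most genes to be unaffected, the smallest adjusted p of a member was 0.0868 (Kif11). The listed genes Cenpe and Hmmr, neither of them a member, passed there at 0.00686 and 0.0106. The share of all genes that passed in that setting is not given here, so these passes cannot be called particular to spindle genes. Over the 10 other settings the mitotic median ran from -0.21 to -0.15 and the difference between class medians from -0.18 to -0.13. The transport median ran from -0.0305, as a weighted mean, to -0.0023, with Kif21a and Kif21b added. No sign of a class median or of their difference turned in these settings. The settings without a minimum mean and with one of 50 kept the same 13 mitotic kinesins, so they could not move that median. Subtracting the median of all genes could not change the difference. With the trend removed no member with a mean of at least 50 changed sign. The limit of 500 counts and the omission of members with shared sequence were added after the data were seen. What could be detected is bounded by the standard errors of the table.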

Other observations

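Across the 29 members with a mean of at least 50, Pearson's r between GC content and log2 fold change was 0.41, and between log2 exon length and log2 fold change 0.16. Over all 10680 genes with that mean the values were 0.25 and -0.12. These are descriptions across genes of the same 4 libraries, and genes are not independent replicates. The mitotic kinesins with a mean of at least 10 had a median GC content of 48.1% and the transport kinesins 52.1%, while those with a mean of at least 50 had 48.1% and 49.1%.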
